A study of Mus musculus with 16 samples.

Results

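The ionotropic glutamate receptors of the AMPA class are built from the subunits GluA1, GluA2, GluA3 and GluA4, which are encoded by Gria1, Gria2, Gria3 and Gria4. These 4 genes were taken from whole mouse genome arrays of the lumbar spinal cord by the gene name that the array design gives each spot, leaving control spots aside. The rule found 12 probes, of 41174 probes in all: 2 for Gria1, 3 for Gria2, 3 for Gria3 and 4 for Gria4. The rule that found the probes used no measured value, but the 4 genes were chosen with earlier results of these data known.

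AMPA receptors carry most of the fast excitatory current between neurons of the cord. They are tetramers, and the makeup of the tetramer sets what passes through the channel. A receptor that holds GluA2 in its edited form lets little calcium through, while a receptor without it is open to calcium, and spinal motor neurons are known for a low supply of GluA2 and a high sensitivity to AMPA receptor agonists. The balance of Gria2 against the other subunits is therefore a question of long standing in mice that carry mutant SOD1.

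The samples fall into 4 groups of 4 arrays each, which were wild-type mice and SOD1G93A mice of 40 days and wild-type mice and SOD1G93A mice of 80 days, all of the mixed B6SJL background. The SOD1G93A mice carry a mutant human SOD1 transgene, and the wild-type mice are described in the labels as nontransgenic. Both ages were chosen by the study as times before symptoms, and the mice were male. Each array carried Cy3-labeled lumbar cord RNA beside a Cy5-labeled reference, which was a pool of neonatal organs (heart, kidney and liver) from both genotypes, so every level here is a log2 ratio of cord to this pool. No array had the dyes swapped. The 4 arrays of 1 slide held replicate 1 of every group, and so on for the other slides, while the place on the slide was the same for all arrays of a group, so place and group cannot be told apart.

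The tissue is a mixture of cells, and in such a sample fewer cells of a type and less RNA per cell cannot be told apart. All 8 neuron markers examined (Snap25, Syt1 and others) were well above background on all 16 arrays, as were all 6 markers of astrocytes and all 6 of oligodendrocytes. Of the 6 motor neuron markers, 4 were well above background on all arrays and Isl1 on 15, whereas the probe of Chat, the acetylcholine-making enzyme of motor neurons, was so on 0 of 16. The share of probes well above background in Cy3 was 46.1% to 55.3% over the arrays. On 3 arrays (wild-type 40 days replicate 3, SOD1G93A 40 days replicate 4 and SOD1G93A 80 days replicate 4), 4 to 63 spots had a local Cy3 background far brighter than the spot itself, and these backgrounds were set to the median of the array. For the AMPA subunit probes, calls lost without this step are given with both values. Calls of other genes and of marker lists were not compared with and without it.

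The probes are 60 bases long and are placed here on the mm7 build that the files name. No annotation of that build was used here, so exons, introns and untranslated ends were not assigned. Of the 12 probes, 9 are listed against a RefSeq mRNA and 3 against a cDNA clone only. The pair below is shown whole because it covers the same stretch of Gria1 and Gria3, with the longest run of bases common to both in capitals.

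Gria1 A_51_P498031, chr11:57370973-57371032, plus strand: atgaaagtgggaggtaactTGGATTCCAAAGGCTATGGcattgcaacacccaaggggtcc
Gria3 A_52_P179309, chrX:36746442-36746501, plus strand: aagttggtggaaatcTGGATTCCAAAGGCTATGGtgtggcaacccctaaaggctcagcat

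The shared run was 19 bases long, and 43 of 56 aligned bases (76.8%) were the same in this pair. Over all 66 pairs of AMPA subunit probes, the next longest shared run was 8 bases. How much RNA of one subunit binds the probe of the other was not tested. The first 30 bases of the probes on which the results below rest are given next, in lower case throughout, with 1 probe of each gene chosen for the balance by its highest mean Cy3 signal and the Gria3 clone probe added for its change at 40 days.

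Gria1 A_52_P39575, chr11:57411500-57411559, plus strand: aaactctgaaagagattgacatttttctca
Gria2 A_52_P575176, chr3:80793353-80793412, minus strand: tggcatgggaatgaatgtcagtgtgactga
Gria3 A_52_P68221, chrX:36770174-36770233, plus strand: gcgcatatttgctctcgtctttagaaaaga
Gria3 A_52_P272364, chrX:36704964-36705023, plus strand: tcctggtttctgtaagtcaactttcaaaac
Gria4 A_51_P501735, chr9:4337362-4337421, minus strand: cgattagacagagctcgggattggctgtca

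Probes of 1 gene did not measure alike. For Gria2, only A_52_P575176 was measured above background, on all 16 arrays. A_52_P891243, which lies 2970 bases further along the gene in the direction of transcription, was well above background on 1 array, and the clone probe A_52_P360995 on 0. The Gria4 clone probe A_52_P153588 was well above background on 1 array. These 3 probes were not tested, which left 9: 2 of Gria1, 1 of Gria2, 3 of Gria3 and 3 of Gria4.

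Of the 9 tested probes, 8 had a log2 ratio of cord to organ pool above 0 on every array after normalization. The mean log2 ratio over the 16 arrays was 4.34 for Gria2, a normalized ratio of 20.2. It was 3.80 for the brighter Gria1 probe (ratio 13.9), 3.103 for Gria4 A_51_P501735 (8.59) and 2.29 for Gria3 A_52_P68221 (4.90). These are not ratios of raw brightness. In wild-type 40 days replicate 1, the raw Cy3 and Cy5 signals of Gria2 A_52_P575176 were 689 and 230.5. Those of Gria3 A_52_P68221 were 213.5 and 244, and its raw Cy3 was below its Cy5 on every array. The normalized ratios do not rank the subunits by abundance, since probes bind with different strength. The Gria3 clone probe A_52_P272364 was the probe with normalized ratios below 0, with a mean of -0.49, and in Cy3 it was well above background on 11 of 16 arrays.

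**Figure D1:**
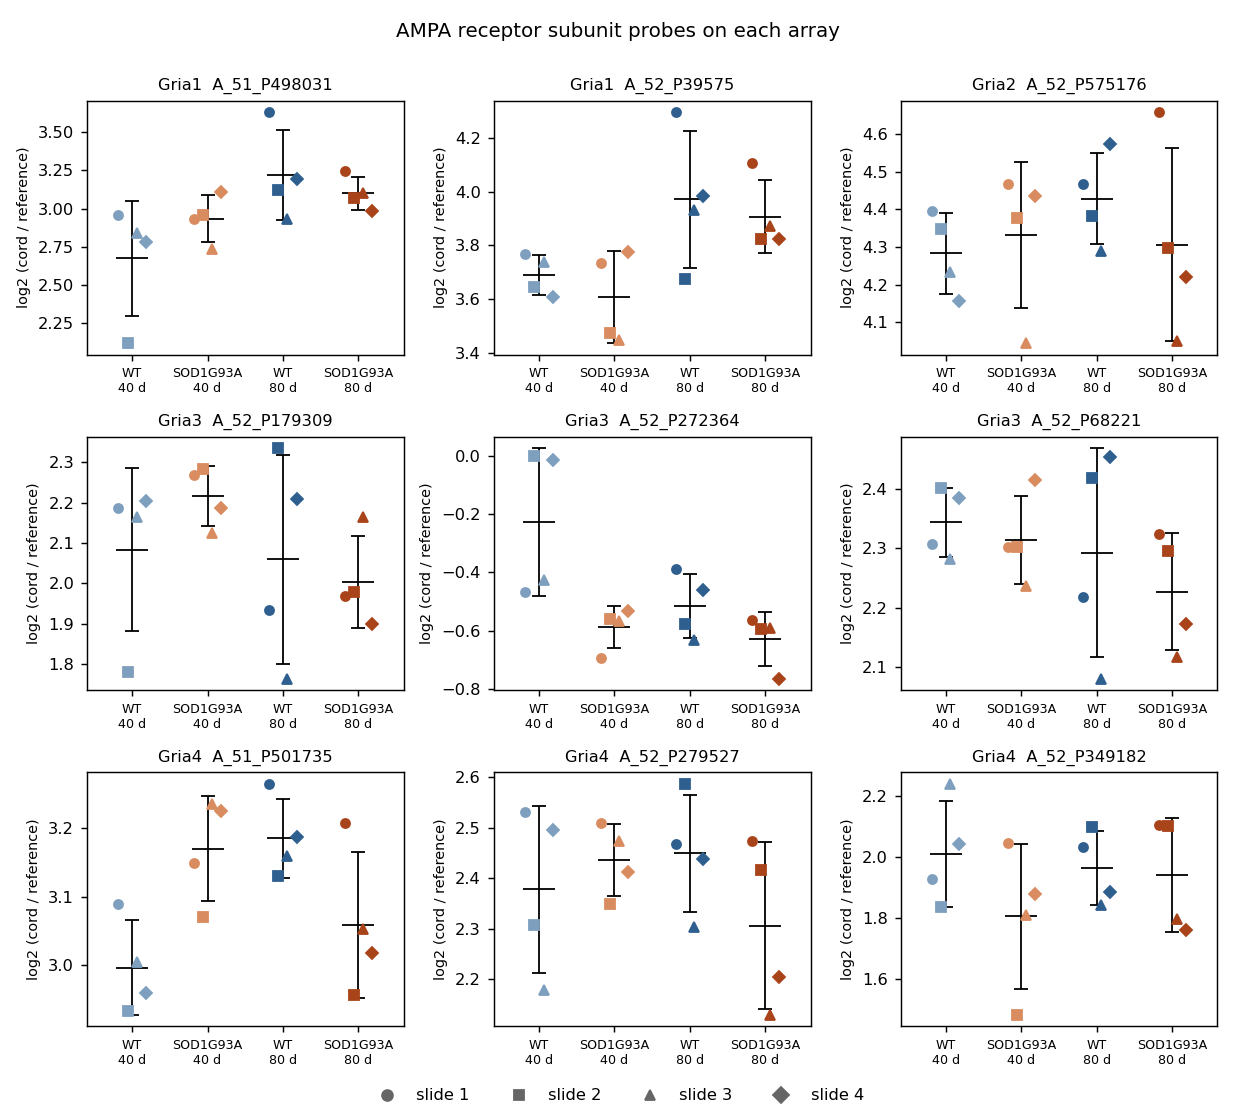
Log2 ratio of cord to organ pool (vertical axis, a different range in each panel) for the 9 tested AMPA subunit probes on each of the 16 arrays, by group on the horizontal axis. Points are arrays with 1 symbol for each slide, and bars are the mean and SD of 4 arrays. The Gria4 probe A_51_P501735 is higher in SOD1G93A than in wild-type on every slide at 40 days and lower on every slide at 80 days.

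At 40 days, 2 of 9 tested probes passed an unadjusted limma p of 0.05, against 4.47% of all 21338 probes tested, and 0 passed after Benjamini-Hochberg adjustment over all probes. The Gria4 probe A_51_P501735 was higher in SOD1G93A mice (1 of 9, against 2.44% of all probes called higher) and the Gria3 clone probe A_52_P272364 was lower (1 of 9, against 2.03%). The Gria3 clone probe entered the test through its wild-type arrays alone, so nothing is read from its place in this count, and with every array required above background 1 AMPA subunit probe was called. Gria1 and Gria2 had no probe past the threshold. Over the 9 probes, 5 changes were positive and 4 negative, with a median of 0.048 on the log2 scale against 0.0029 over all probes.

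GluA4, the product of Gria4, is a subunit with fast kinetics that is well represented in the spinal cord. In wild-type mice of 40 days its probe A_51_P501735 had log2 ratios of 3.09, 2.93, 3.00 and 2.96 in replicates 1 to 4. The SOD1G93A mice of that age had 3.15, 3.07, 3.24 and 3.23 (3.225 before rounding). All but 1 of the SOD1G93A arrays lay above every wild-type array, and replicate 2 lay just under the highest of them. The change was 0.17 on the log2 scale (SE 0.060, limma p = 0.016, adjusted p = 0.998, two-sided exact permutation p = 0.0571), a rise of 12.8%. The smallest p that 4 arrays against 4 can give by exact permutation is 0.0286. Within slides the difference ran from 0.059 to 0.27, higher in SOD1G93A on 4 of 4. The call was lost with the bright local backgrounds kept (0.12), with the processed signals of the scanner software (0.13) and with median centring in place of loess (0.033). With median centring the median change over all probes was -0.051. The change of this Gria4 probe was 0.25 from Cy3 signals only and 0.24 in the authors' normalized values, past the threshold in both.

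The other Gria4 probes gave different values at 40 days. A_52_P279527, 1707 bases further along the gene, changed by 0.059 (SE 0.083, exact permutation p = 0.543), with group ranges of 2.18 to 2.53 in wild-type and 2.35 to 2.51 in SOD1G93A. A_52_P349182, which lies 82204 bases before A_51_P501735, had a change of -0.21 (SE 0.12, exact permutation p = 0.229). On that probe, SOD1G93A replicate 2 was bright in both channels, at 8.76 in Cy3 and 7.27 in Cy5 on the log2 scale against a median Cy5 of 5.88 over the arrays, and without it the change was -0.099, whereas without SOD1G93A replicate 1 it was -0.29 and passed the threshold. Groups overlapped for both probes.

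GluA3, from Gria3, forms receptors mainly with GluA2. Its clone probe A_52_P272364 had log2 ratios of -0.47, -0.0020, -0.43 and -0.014 in wild-type mice of 40 days. In the SOD1G93A mice they were -0.69, -0.56, -0.57 and -0.53, all below the lowest wild-type value. The groups did not overlap, as for 2.83% of all probes compared in this way at 40 days, and this was 1 of 9 for the AMPA subunits. The change was -0.36 (SE 0.11, limma p = 0.00903, adjusted p = 0.998, exact permutation p = 0.0286, the smallest possible). It was lower on 4 of 4 slides, from -0.56 to -0.14.

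Several values bear on how far this Gria3 difference can be read. The Cy3 signal was well above background on 4 wild-type arrays but 2 SOD1G93A arrays of 40 days. A probe was tested where 3 of 4 arrays of any compared group were so, and this probe met that only in wild-type, which is the group where it was higher. The change and its p are therefore given as a description. The size of the change moved to -1.35 with the processed signals of the scanner software. The probe is listed against a cDNA clone, and its bases lie 41418 bases before those of A_52_P179309 on the chromosome. Its correlation with the other Gria3 probes over 16 arrays was -0.121 for A_52_P179309 and 0.456 for A_52_P68221. Neither of those probes passed the test at 40 days, with changes of 0.13 (SE 0.095, exact permutation p = 0.229) and -0.029 (SE 0.058, exact permutation p = 0.60). With the processed signals, A_52_P179309 did pass, at 0.28 in the direction opposite to the clone probe.

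GluA2 is the subunit that, once its RNA is edited, keeps calcium out of the channel. Its measured probe A_52_P575176 had log2 ratios of 4.40, 4.35, 4.23 and 4.16 in wild-type mice of 40 days. The SOD1G93A mice had 4.47, 4.38, 4.05 and 4.43, with replicate 3 below every wild-type array and the others within or above their range. The change was 0.048 (SE 0.097, exact permutation p = 0.714), with a 95% interval from -0.17 to 0.26, and the groups overlapped. Its sign turned with the bright backgrounds kept and with the Cy3 channel used alone, to -0.056 and -0.029, and in the authors' normalized values, to -0.0495.

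GluA1, from Gria1, is the subunit most studied for its delivery to synapses on activity. Its brighter probe A_52_P39575 read 3.77, 3.65, 3.74 and 3.61 in wild-type mice of 40 days and 3.74 (3.735 before rounding), 3.48, 3.45 and 3.78 in SOD1G93A mice, so that 2 SOD1G93A arrays lay under the wild-type range. The change was -0.083 (SE 0.085, exact permutation p = 0.371). The other probe, A_51_P498031, changed by 0.26 (SE 0.16, exact permutation p = 0.286). That value rested on wild-type replicate 2, whose ratio of 2.12 came with a Cy5 signal of 7.26 against a median of 6.37, and without this array the change was 0.074.

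At 80 days, 0 of 9 probes passed an unadjusted limma p of 0.05, against 6.86% of 21603 probes, and 0 passed after adjustment. All 9 changes were below 0, from -0.14 to -0.024, with a median of -0.11 against -0.0012 over all probes. The median is the change of the Gria3 clone probe A_52_P272364. This probe was well above background in Cy3 on 3 wild-type and 2 SOD1G93A arrays of 80 days. It entered the test through wild-type alone, where it was higher, so nothing is read from its sign. Probes of 1 gene and genes of 1 tissue share their arrays, so these 9 signs are not 9 separate observations. The sign held for all 9 under each other background correction and normalization tried, and turned for A_52_P39575 and A_52_P349182 with array weights, at 0.0015 and 0.022. Leaving out single arrays turned the sign of 4 of the 9 probes, and no pair of groups was without overlap, against 4.31% of all probes at 80 days.

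The Gria4 probe A_51_P501735 had log2 ratios of 3.27 (3.265 before rounding), 3.13, 3.16 and 3.19 in wild-type mice of 80 days. The SOD1G93A mice had 3.21, 2.96, 3.05 and 3.02. Here 3 SOD1G93A arrays lay below all wild-type arrays, and replicate 1 was the second highest of the 8. The change was -0.13 (SE 0.069, limma p = 0.0957, adjusted p = 0.749, exact permutation p = 0.114), and within slides the difference was below 0 on 4 of 4, from -0.17 to -0.057. It passed the threshold without SOD1G93A replicate 1 (-0.18), from Cy3 signals only (-0.16) and in the values the authors normalized (-0.16). With the bright backgrounds kept it was -0.20 and did not pass.

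Gria2 at 80 days read 4.47, 4.38, 4.29 and 4.57 in wild-type mice. In SOD1G93A mice its ratios were 4.66, 4.30, 4.05 and 4.22. The highest and the lowest of the 8 arrays were both SOD1G93A, replicates 1 and 3, and the spread of that group (SD 0.26, n = 4) was above that of wild-type (SD 0.12, n = 4). The change was -0.12 (SE 0.12, exact permutation p = 0.457), with a 95% interval from -0.39 to 0.14. Without SOD1G93A replicate 1 it was -0.24 and passed the threshold, and with the bright backgrounds kept it was -0.22 and did not.

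Gria1 differed by -0.12 (SE 0.13, exact permutation p = 0.60) and -0.065 (SE 0.12, exact permutation p = 0.714) on its probes A_51_P498031 and A_52_P39575 at 80 days. Gria3 differed by -0.057 on A_52_P179309, -0.11 on A_52_P272364 and -0.065 on A_52_P68221, with exact permutation p from 0.229 to 0.714. The remaining Gria4 probes differed by -0.14 (A_52_P279527, exact permutation p = 0.229) and -0.024 (A_52_P349182, exact permutation p = 0.743). Keeping the bright backgrounds moved the last of these to -0.13.

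**Figure D2:**
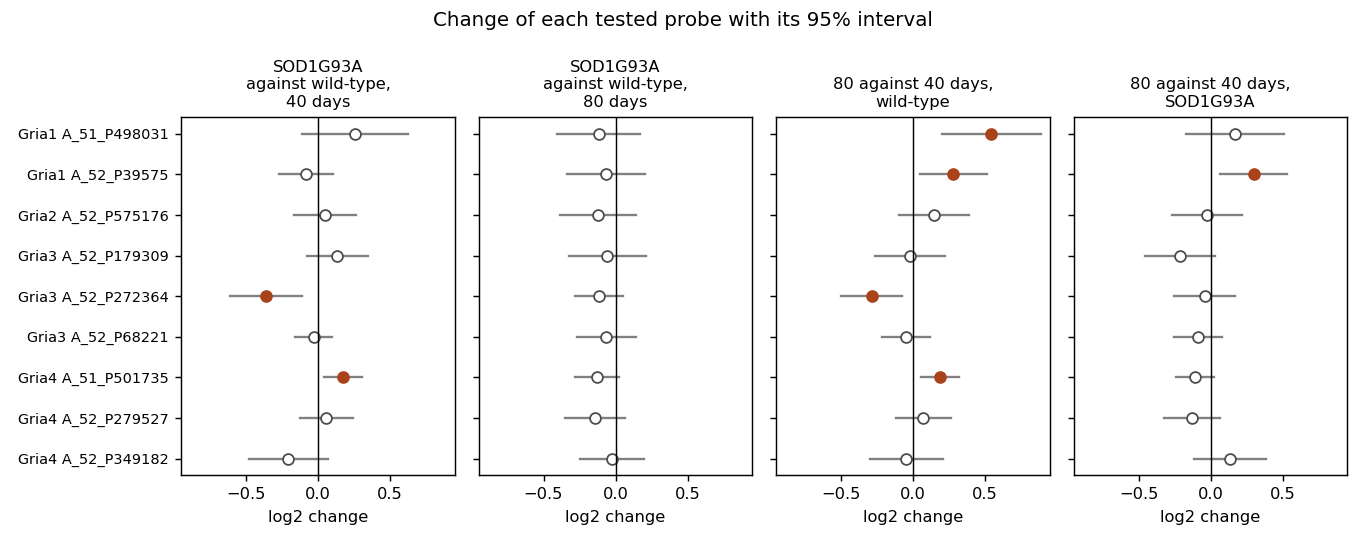
Log2 change of the 9 tested AMPA subunit probes with 95% intervals (horizontal axis) in 4 comparisons, SOD1G93A against wild-type at each age and 80 against 40 days in each genotype. Filled points passed an unadjusted limma p of 0.05, which was 2 probes at 40 days, 0 at 80 days, 4 with age in wild-type and 1 with age in SOD1G93A.

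Whether the genotype difference itself changed between the ages was tested as an interaction over all 16 arrays. Of 9 probes, 1 passed an unadjusted limma p of 0.05, against 6.68% of 21953 probes (3.57% called below 0), and 0 after adjustment. This was A_51_P501735 of Gria4, higher in SOD1G93A at 40 days and lower at 80 days, with a difference between the changes of -0.30 (SE 0.088, limma p = 0.00352, adjusted p = 0.543, exact permutation p = 0.00408). From these same arrays the study had already listed Gria4 as up at 40 days and down at 80 days. The interaction test is therefore no independent check of that turn in direction. The permutation exchanged genotype labels within each age, where the smallest possible p is 0.000408 by exact enumeration. On slides 1 to 4 the difference was -0.12, -0.31, -0.34 and -0.43, below 0 on each, and leaving out any 1 array gave values from -0.35 to -0.27. The call was lost with the bright backgrounds kept (-0.32), with the processed signals (-0.20) and with median centring (-0.071), all below 0. With median centring the median over all probes was 0.086 in the interaction. The Gria4 difference was -0.41 from Cy3 signals only and -0.40 in the authors' normalized values, past the threshold in both.

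**Figure D3:**
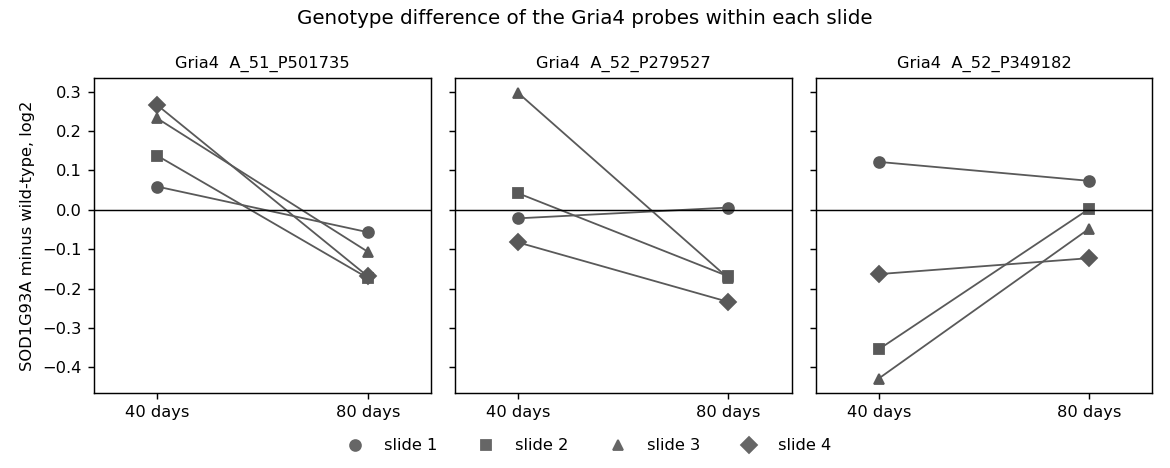
SOD1G93A minus wild-type log2 ratio (vertical axis) of the 3 tested Gria4 probes at 40 and 80 days, with 1 line for each of the 4 slides. For A_51_P501735 all lines run from above 0 at 40 days to below 0 at 80 days, whereas those of A_52_P349182 run in mixed directions.

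The remaining Gria4 probes did not pass this test, at -0.20 (SE 0.13, exact permutation p = 0.149) for A_52_P279527 and 0.18 (SE 0.17, exact permutation p = 0.361) for A_52_P349182. For Gria2 the difference between the changes was -0.17 (SE 0.16, exact permutation p = 0.343). The ratios of A_51_P501735 over the 16 arrays correlated at 0.413 with A_52_P279527 and at -0.0216 with A_52_P349182, and the corresponding value for the pair of Gria1 probes was 0.689.

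General neuron markers had median differences of the same sign as the Gria4 probe, whereas the median of motor neuron markers had the opposite sign at 40 days and in the interaction. The median deviation of 8 neuron markers from their means, used as a neuron score, was higher in SOD1G93A by 0.084 at 40 days and lower by 0.089 at 80 days (-0.089), a difference of -0.17 between the ages. Of 18 neuron marker probes, 2 passed the interaction test, both below 0 and both of 1 gene, against 3.57% of all probes called below 0. The median of the list was -0.095. Of 5 motor neuron marker probes, 1 passed that test, above 0, against 3.11% of all probes. Their median was -0.10 at 40 days, -0.026 at 80 days and 0.088 in the interaction. The genotype difference of the Gria4 probe minus the neuron score was 0.090 at 40 days, -0.037 at 80 days and -0.13 between the ages. Between the ages it was 0.0030 for Gria2, 0.19 for Gria1 and 0.14 for Gria3. These values were not tested, and the SD of the score itself within groups ran from 0.058 to 0.093 (n = 4 each). Over the 16 arrays the correlation with the score was 0.599 for Gria4, 0.498 for Gria3, 0.483 for Gria2 and 0.098 for Gria1. With the group means taken out it was 0.394 for Gria4, 0.565 for Gria3, 0.442 for Gria2 and 0.233 for Gria1. Of 12 astrocyte marker probes, 3 were called higher in SOD1G93A at 40 days, against 2.44% of all probes, and 4 were called below 0 in the interaction, against 3.57%. Of 13 oligodendrocyte marker probes, 3 were called higher at 40 days and 3 at 80 days, against 2.44% and 3.74% of all probes, and 0 in the interaction. The largest median differences at 40 days were those of meningeal fibroblast (-0.69), Schwann cell (-0.66) and skeletal muscle markers (0.76), with 0 probes called in each. The 1 sensory neuron marker probe tested was called lower at 40 days (-0.46), against 2.03% of all probes. The part of these cell markers in the Gria4 result was not tested.

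With age, a Gria1 probe had the largest change among the 9 tested probes in each genotype. In wild-type mice, 4 of 9 probes passed an unadjusted limma p of 0.05 between 40 and 80 days, against 15.1% of 21953 probes, and in SOD1G93A mice 1 of 9 against 16.9%. By direction these were 3 higher and 1 lower in wild-type, against 6.78% and 8.29% of all probes, and 1 higher and 0 lower in SOD1G93A, against 8.64% and 8.28%. After adjustment 0 of 9 passed in either genotype, against 1.58% and 1.12% of all probes. The groups of the AMPA subunits were without overlap for 1 of 9 probes in each genotype, against 7.66% of all probes in wild-type and 12.4% in SOD1G93A. Markers of glia also differed with age. Of 13 oligodendrocyte marker probes, 3 were lower at 80 days in wild-type and 6 in SOD1G93A mice, against 8.29% and 8.28% of all probes, with 1 past adjustment in each genotype, and of 6 oligodendrocyte precursor probes 4 were lower in wild-type and 1 in SOD1G93A mice. The median of 12 astrocyte marker probes was 0.18 in wild-type and -0.18 in SOD1G93A mice, and that of 18 neuron marker probes 0.013 and -0.045. The part of these markers in the age results was not tested.

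Gria1 A_52_P39575 read 4.30 (4.295 before rounding), 3.68, 3.93 and 3.98 in wild-type mice of 80 days, so that replicates 1, 3 and 4 exceeded every wild-type array of 40 days while replicate 2 lay within their range. The increase was 0.28 (SE 0.11, limma p = 0.0226, exact permutation p = 0.0857), and without wild-type replicate 1 of 80 days it was 0.17 and no longer passed. It was also not called without wild-type replicate 4 of 40 days (0.25) or with median centring (0.16). The SOD1G93A mice of 80 days had 4.11, 3.82, 3.87 and 3.82, all above the highest SOD1G93A array of 40 days. The increase there was 0.30 (SE 0.11, limma p = 0.0163, exact permutation p = 0.0286), higher on 4 of 4 slides. It lost its call without SOD1G93A replicates 2 or 3 of 40 days (0.25 and 0.24) or replicate 1 of 80 days (0.23).

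The second Gria1 probe, A_51_P498031, had log2 ratios of 2.96, 2.12, 2.84 and 2.78 in wild-type mice of 40 days and 3.63, 3.12, 2.93 and 3.20 (3.195 before rounding) at 80 days. Replicate 3 of 80 days lay among the younger mice and the others above them. This was an increase of 0.54 (SE 0.16, limma p = 0.0038, exact permutation p = 0.0571), which became 0.36 and still passed without wild-type replicate 2 of 40 days. In SOD1G93A mice the change with age was 0.17 (SE 0.16, exact permutation p = 0.143), with values of 2.93, 2.96, 2.74 and 3.11 at 40 days and 3.243, 3.071, 3.104 and 2.983 at 80 days. The difference in this change between the genotypes was -0.38 (exact permutation p = 0.171).

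Gria4 A_51_P501735 rose with age in wild-type mice by 0.19 (SE 0.062, limma p = 0.0078, exact permutation p = 0.0286), with every array of 80 days above every array of 40 days and 4 of 4 slides higher. In SOD1G93A mice it changed by -0.11 (SE 0.062, exact permutation p = 0.143), and passed without replicate 2 of 40 days (-0.14) or replicate 1 of 80 days (-0.16). Its levels therefore ordered as wild-type 80 days (3.19 ± 0.058, SD, n = 4), SOD1G93A 40 days (3.17 ± 0.077), SOD1G93A 80 days (3.06 ± 0.11) and wild-type 40 days (3.00 ± 0.069). Of the neighbours in this order, the middle pair alone differed by more than either SD. The wild-type rise was not called with median centring (0.025), with the processed signals (0.14) or with the bright backgrounds kept (0.40). With median centring the median over all probes was -0.046 in this comparison. From Cy3 signals only the rise was 0.29 and passed.

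The Gria3 clone probe A_52_P272364 fell by 0.29 with age in wild-type mice (SE 0.099, limma p = 0.0103, exact permutation p = 0.143), its 40-day values being spread widely, and changed by -0.041 in SOD1G93A mice. With the processed signals the wild-type change was -0.73 and did not pass. The other Gria3 probes did not pass in either genotype, with changes from -0.21 to -0.024. Gria2 changed by 0.14 in wild-type (SE 0.12, exact permutation p = 0.143), or 0.38 with the bright backgrounds kept, and by -0.025 in SOD1G93A mice (SE 0.12, exact permutation p = 0.943). Its group means ran from 4.28 to 4.43, with no neighbours in the order further apart than their SD.

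The balance of the subunits was taken on each array as the log2 ratio of the Gria2 probe minus the mean of 1 probe each of Gria1, Gria3 and Gria4. Its zero has no meaning across probes, so only its differences between groups are read, and as a score over chosen genes it was given no test. In wild-type mice of 40 days it was 1.34, 1.35, 1.23 (1.225 before rounding) and 1.17, and in SOD1G93A mice 1.404, 1.428, 1.071 and 1.296. The SOD1G93A arrays surrounded the wild-type ones, and the difference of the means was 0.027 (SE 0.092), from 1.27 ± 0.088 (SD, n = 4) to 1.3 ± 0.16.

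At 80 days the wild-type values of the balance lay between 1.21 and 1.37 (mean 1.28 ± 0.072, SD, n = 4), and the SOD1G93A values between 1.04 and 1.44 (mean 1.24 ± 0.17). The difference was -0.036 (SE 0.092), and the groups overlapped. Replicate 3 was the lowest SOD1G93A array at both ages. The balance changed with age by 0.0054 in wild-type and -0.058 in SOD1G93A mice, and each of these 4 differences was under the SD of either group. The wider spread in SOD1G93A at both ages was not tested.

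Taken subunit by subunit, Gria2 minus Gria1 was 0.59 ± 0.090 in wild-type mice of 40 days and 0.72 ± 0.13 in SOD1G93A mice (SD, n = 4 each). At 80 days it was 0.46 ± 0.24 and 0.40 ± 0.16. The genotypes overlapped at both ages, whereas SOD1G93A mice of 80 days (0.18 to 0.55) and of 40 days (0.60 to 0.90) did not, the difference being -0.32 (SE 0.10). In that comparison Gria1 A_52_P39575 itself rose by 0.30 without overlap, while the Gria2 probe changed by -0.025 with overlap. Of all single probes, 12.4% were without overlap there. Gria2 minus Gria3 lay between 1.77 and 2.33 over all arrays and Gria2 minus Gria4 between 0.81 and 1.45, with overlap in all comparisons of genotype and age. The difference between genotypes in Gria2 minus Gria4 was -0.13 (SE 0.13) at 40 days and 0.0045 (SE 0.11) at 80 days.

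**Figure D4:**
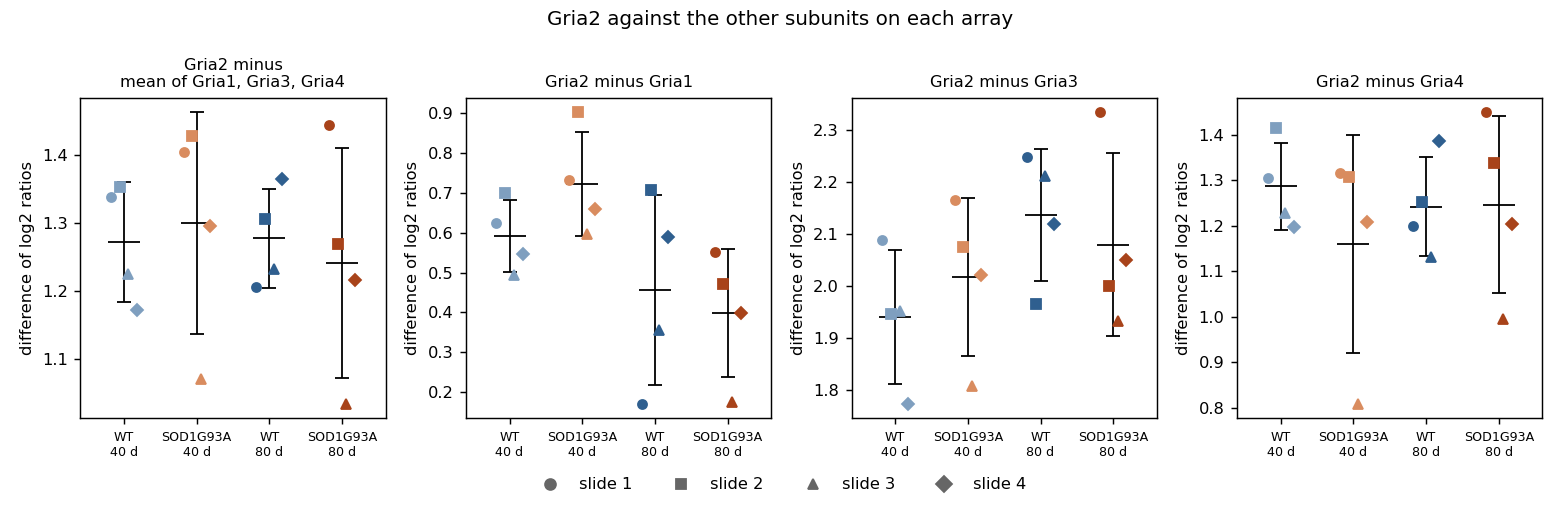
Log2 ratio of the Gria2 probe minus that of the other AMPA subunits together and singly (vertical axis, a different range in each panel) on each of the 16 arrays by group. Points are arrays with 1 symbol for each slide, and bars are the mean and SD of 4 arrays. Genotypes overlap at both ages in every panel.

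The chosen subunit probes did not vary as 1 set across the arrays. Pearson correlations over 16 arrays were 0.512 for Gria1 with Gria2, 0.485 for Gria2 with Gria3, 0.415 for Gria2 with Gria4 and 0.399 for Gria1 with Gria4, but -0.219 for Gria1 with Gria3 and -0.0474 for Gria3 with Gria4. These pairs share the arrays and their labeling, and are given as a description. With the group means taken out they ran from -0.0501 (Gria1 with Gria3) to 0.656 (Gria1 with Gria4).

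Among 16303 probes of other named genes that were well above background on all arrays, those that followed Gria2 most closely were Syt1 (r = 0.859), Myt1l (0.859) and Mpped1 (0.855). Syt1 encodes the calcium sensor of synaptic vesicle release, and Myt1l a neuronal transcription factor. Gria1 was followed most closely by Nrgn (0.891), a calmodulin-binding protein of the postsynapse, Fam241b (0.883) and Timp3 (0.880). For Gria4 the list was Zfp148 (0.852) and the microtubule-associated proteins Map1b (0.824) and Map1a (0.807), and for Gria3 it was the kinase Dclk1 (0.879), Hsd17b2 (0.876) and Zmym1 (0.867). Each r is the highest of a large search over 16 arrays.

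The proteins that assemble, anchor and move AMPA receptors were examined with the same test. At 40 days, 2 of 17 probes of auxiliary subunits were higher in SOD1G93A mice and 0 lower, against 2.44% and 2.03% of all probes. These were Frrs1l, which acts in receptor assembly, by 0.16 (limma p = 0.0392, exact permutation p = 0.0286) and Shisa7 by 0.15 (limma p = 0.035). Of 36 probes of scaffold and trafficking proteins, 2 were higher and 0 lower against the same shares. They were the synaptic adhesion protein Lrrtm2 by 0.18 (limma p = 0.0165, exact permutation p = 0.0571) and the endosomal protein Nsg2 by 0.14 (limma p = 0.0363, exact permutation p = 0.0286). The other probes of Frrs1l and Lrrtm2 changed by 0.11 and -0.076 (exact permutation p = 0.486 for each). The medians of these lists were 0.052 and 0.030, against 0.0029 over all probes.

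Adarb1, the adenosine deaminase that edits the Gria2 transcript, was the 1 probe of 15 for kinases, phosphatases and editing enzymes that passed at 40 days, against 2.44% of all probes called higher. Its probe A_51_P156882 rose from 0.53 ± 0.082 to 0.73 ± 0.073 (SD, n = 4 each), and the change was 0.20 (SE 0.062, limma p = 0.0087, adjusted p = 0.998, exact permutation p = 0.0286). The Adarb1 probe with the highest mean Cy3 signal was A_52_P592828, which changed by 0.032 (exact permutation p = 0.714). At 80 days the changes were 0.037 and 0.0027. Editing of the Gria2 RNA itself is not measured by these arrays.

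Of the other ionotropic glutamate receptors, 2 of 7 NMDA receptor probes were higher in SOD1G93A at 40 days, Grin1 by 0.25 (limma p = 0.0354, exact permutation p = 0.114) and Grin2a by 0.13 (limma p = 0.0356, exact permutation p = 0.0286), and 0 were lower, against 2.44% and 2.03% of all probes. Of 8 kainate and delta receptor probes, 0 passed. The medians were 0.070 and 0.033, against 0.0029 over all probes.

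At 80 days, of 35 scaffold and trafficking probes, 6 were higher in SOD1G93A and 0 lower, against 3.74% and 3.12% of all probes, and the median of the list was 0.017 against -0.0012. Nsg1, an endosomal protein that carries AMPA receptors, was higher by 0.29 (SE 0.10, limma p = 0.0182, exact permutation p = 0.0571). Arc, the immediate early gene that drives receptor uptake, was higher by 0.34 (SE 0.13, limma p = 0.0288, exact permutation p = 0.0857). Epb41l1, which binds GluA1, passed on 2 probes, at 0.17 and 0.30 (limma p = 0.0383 and 0.0427, exact permutation p = 0.0571 and 0.171). Gripap1, which acts in endosomal recycling, was higher by 0.17 (limma p = 0.0414, exact permutation p = 0.0571). The remaining probe of the 6 was that of the scaffold Dlg4 at 0.20 (limma p = 0.0484, exact permutation p = 0.0571), which is named after its value was seen. Other probes of these genes did not pass, at 0.14 for Nsg1, 0.016 for Dlg4, -0.058 for Gripap1 and -0.086 for Epb41l1.

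Of 18 auxiliary probes, 1 was called higher at 80 days and 0 lower, against 3.74% and 3.12% of all probes. This was Cacng2 (stargazin), higher by 0.25 (SE 0.095, limma p = 0.0247, exact permutation p = 0.0571), while its other probes A_52_P569028 and A_51_P408910 changed by -0.037 and 0.063. Of 9 kainate and delta probes, 1 was called higher and 1 lower, against the same shares. Grik4 was higher by 0.24 (SE 0.066, limma p = 0.00479, exact permutation p = 0.0286) and a probe of Grik1 lower by 0.35 (-0.35, limma p = 0.0329, exact permutation p = 0.114). Of 7 NMDA receptor probes and 14 probes of kinases, phosphatases and editing enzymes, 0 passed. None of these genes passed after adjustment at either age.

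In the interaction, Frrs1l (-0.32, exact permutation p = 0.0298), Nsg2 (-0.23, exact permutation p = 0.0298) and Lrrtm2 (-0.23, exact permutation p = 0.0608) had a genotype difference that was lower at 80 than at 40 days. Nsg1 (0.40, exact permutation p = 0.0547) and Grik4 (0.24, exact permutation p = 0.0637) had one that was higher. By list, 1 of 18 auxiliary probes was called below 0, and 2 of 37 scaffold and trafficking probes below and 1 above. Of 9 kainate and delta probes 1 was called above 0, and 0 of 15 kinase, phosphatase and editing and 0 of 7 NMDA probes were called. Of all probes, 3.57% were called below 0 and 3.11% above. None of the listed probes passed after adjustment, and whether they share a pattern with Gria4 was not tested.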

How the data were processed

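The authors scanned 2-colour Agilent arrays, extracted spots with Feature Extraction 9.5.3.1 (per the submitters' processing notes), left out arrays of poor quality, and deposited spot signals as intensity values without normalization, with the processed signals of that software. Their own normalized log2 values, deposited in the series matrix, follow Cy3 alone, with 1 set of quantiles for each age. Here, median signals were background-corrected (normexp, offset 50), after local backgrounds over 20 units above their spot were set to the array median, normalized by loess within arrays and by Aquantile between them, and turned to Cy3 over Cy5, with limma 3.58.1 in R 4.3.3 (package data.table, version 1.17.8). Spots marked as outliers were dropped. The tests took probes with Cy3 well above background on 3 of 4 arrays in any group, and with 2 or more measured arrays in every group. Genotypes were compared with lmFit and eBayes on the 8 arrays of an age, and the interaction and ages on all 16. Calls used an unadjusted p of 0.05, as in the methods of the study, and Benjamini-Hochberg values over all probes are given beside them. Tests on simulated data recovered 79.5% of changes of 0.25 at 40 days, 75.0% at 80 days and 58.0% in the interaction. These changes were set in 200 probes drawn at random from all tested probes, with independent normal noise. The percentages are therefore not those of the AMPA subunit probes. The labels call the samples biological replicates. Replicates shared slides by number, per the file headers. Of same-slide pairs of arrays, 7 of 24 had deviations that correlated above 0.1 (range -0.141 to 0.232). Pairs on different slides were not compared, so no slide effect is read from this. Gene names were updated for 22951 of 41174 probes by accession, and otherwise by symbol or synonym, or kept. Named genes of the other lists were the called probes with the smallest p (at most 8 a genotype comparison), and of like patterns the 3 highest correlations. Members, gene lists and tests were chosen with earlier results of these data known. Figures used matplotlib 3.10.9 in Python 3.11.15. The number of arrays (4 a group) limits precision, and low signals are drawn toward a ratio of 1 by the offset.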

Additional observations from a re-analysis of the deposited data

Results flagged for a closer look

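The genotype difference of the Gria4 probe A_51_P501735 itself differed between the ages by -0.30 on the log2 scale (limma p = 0.00352, adjusted p = 0.543, exact permutation p = 0.00408), being above 0 at 40 days and below 0 at 80 days. The study had already listed these directions for Gria4 from the same arrays, so this is no independent check of them.

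A single array stood apart from the other 3 of its group in 2 of 36 groups checked over the 9 tested probes, where chance alone gives about 1 in 20. These were wild-type 40 days replicate 2 for the Gria3 probe A_52_P179309, with a log2 ratio of 1.78, and SOD1G93A 80 days replicate 4 for the Gria3 clone probe A_52_P272364, with -0.766.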

How the results depend on the processing

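None of the called changes of an AMPA subunit probe turned its sign under any alternative run, whereas several uncalled ones did. Called changes are those large against their error on these same arrays, so this contrast is no separate support for them. They include the Gria3 clone probe, which entered the 40-day test through wild-type alone. With the slides as a replicate block, the numbers of called probes stayed at 2, 0, 1, 4 and 1 (40 days, 80 days, interaction, age in wild-type, age in SOD1G93A) and no probe changed its call. Of 24 same-slide pairs of arrays, 7 had deviations correlated above 0.1, with no pairs on different slides taken for comparison.

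The number of probes called was 1 at 40 days and 0 in the interaction with bright backgrounds kept. It was 0 in the interaction and 2 with age in wild-type with the processed signals, and at 40 days these called Gria3 A_52_P179309 (0.28) in place of Gria4 A_51_P501735. Median centring gave 1 at 40 days and 2 with age in each genotype, Cy3 alone 1 at 80 days and 2 with age in SOD1G93A, and the series matrix values 1 at 80 days. With every array required above background it was 1 at 40 days, and with array weights 2 with age in SOD1G93A. Leaving out single arrays gave 0 to 2 at 80 days (2 without SOD1G93A 80 days replicate 1), 1 to 2 in the interaction (2 without wild-type 40 days replicate 1 or 3) and 0 to 2 with age in SOD1G93A (0 without SOD1G93A 40 days replicate 3, 2 without wild-type 40 days replicate 2 or SOD1G93A 80 days replicate 3). The series matrix values were not run for the age comparisons, since they were normalized within each age. The cause of these shifts was not tested.

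Signs of uncalled changes turned as follows. At 40 days, Gria2 A_52_P575176 became -0.056 with bright backgrounds kept, -0.029 in Cy3 alone, -0.0495 in the series matrix and -0.0018 with array weights. Gria4 A_52_P279527 became -0.014 with bright backgrounds kept and -0.027 with median centring, Gria4 A_52_P349182 0.0056 in Cy3 alone and 0.018 in the series matrix, and Gria3 A_52_P68221 0.047 with the processed signals. At 80 days, array weights gave 0.022 for Gria4 A_52_P349182 and 0.0015 for Gria1 A_52_P39575. In the interaction, Gria4 A_52_P349182 became -0.065 in Cy3 alone and -0.094 in the series matrix, and Gria3 A_52_P68221 0.038 with median centring.

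With age in wild-type, Gria4 A_52_P349182 became 0.24 with bright backgrounds kept, 0.32 with the processed signals and 0.027 with median centring, and Gria4 A_52_P279527 -0.0066 with median centring. Gria3 A_52_P179309 became 0.25, 0.012, 0.0017 and 0.060 with bright backgrounds kept, no background subtraction, the processed signals and array weights, and Gria3 A_52_P68221 0.15, 0.031 and 0.020 with bright backgrounds kept, the processed signals and array weights. With age in SOD1G93A, keeping bright backgrounds gave 0.078 for Gria4 A_51_P501735, 0.092 for Gria4 A_52_P279527, 0.028 for Gria3 A_52_P179309, 0.099 for Gria3 A_52_P68221 and 0.21 for Gria2 A_52_P575176. Gria2 A_52_P575176 also became 0.013 in Cy3 alone and 0.033 with array weights, Gria3 A_52_P272364 0.015 without background subtraction and 0.090 with the processed signals, Gria1 A_51_P498031 -0.095 with the processed signals, and Gria4 A_52_P349182 -0.13 in Cy3 alone.

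Leaving out single arrays gave ranges across 0 for Gria4 A_52_P279527 at 40 days (-0.0079 to 0.11). At 80 days they did so for Gria1 A_51_P498031 (-0.21 to 0.019), Gria1 A_52_P39575 (-0.16 to 0.043), Gria3 A_52_P179309 (-0.16 to 0.035) and Gria4 A_52_P349182 (-0.078 to 0.036). In the interaction they did so for Gria1 A_52_P39575 (-0.081 to 0.13) and Gria3 A_52_P68221 (-0.11 to 0.018). With age in wild-type these were Gria4 A_52_P349182 (-0.10 to 0.030), Gria3 A_52_P179309 (-0.12 to 0.075) and Gria3 A_52_P68221 (-0.10 to 0.020), and with age in SOD1G93A Gria3 A_52_P272364 (-0.076 to 0.0045) and Gria2 A_52_P575176 (-0.14 to 0.061). The genotype difference in the Gria2 balance ran from -0.015 to 0.10 at 40 days and from -0.10 to 0.032 at 80 days without single arrays.

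Over all probes, 953 were called at 40 days, 54.6% of them higher in SOD1G93A. The share was 86.4% of 1615 with the processed signals, 8.81% with median centring, 69.0% of 536 in Cy3 alone and 67.1% of 538 in the series matrix. At 80 days it was 54.5%, 35.6% with the processed signals and 81.5% with median centring. In the interaction it was 46.6% of 1466, 19.4% with the processed signals (19.35% before rounding), 91.0% with median centring and 31.6% of 976 in Cy3 alone. With age in wild-type it was 45.0%, then 60.02% with the processed signals and 8.28% with median centring. With age in SOD1G93A it was 51.1% of 3714 (51.05% before rounding), then 34.8% and 69.1% of 2472 under the same settings. After adjustment, 347 and 246 probes passed with age in wild-type and SOD1G93A, against 147 and 146 in Cy3 alone and 69 in SOD1G93A with median centring.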

Other observations

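Genes related to the AMPA receptors also changed with age, and are named here after their values were seen. In wild-type mice both tested probes of the kainate receptor subunit Grik1 were higher at 80 than at 40 days, A_51_P282609 by 0.42 (limma p = 0.00332, adjusted p = 0.106) and A_52_P660400 by 0.22 (limma p = 0.00892, adjusted p = 0.164), each with an exact permutation p of 0.0286. The corresponding changes in SOD1G93A mice were 0.10 and 0.056 (exact permutation p = 0.686 and 0.486). The difference in this change between the genotypes was tested, at -0.32 (exact permutation p = 0.156) and -0.16 (exact permutation p = 0.144).

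For other related genes, probes of 1 gene moved in opposite directions with age. Pick1, a scaffold that binds the tail of GluA2, was lower by 0.34 at 80 days in wild-type mice on A_52_P328254 (-0.34, limma p = 0.00523) and higher by 0.21 on A_51_P288390 (limma p = 0.0163), each with an exact permutation p of 0.0571. Adarb2, a relative of the editing enzyme, changed in SOD1G93A mice by 0.51 on A_52_P265084 (limma p = 0.00514, exact permutation p = 0.0286) and by -0.25 on A_52_P105429 (limma p = 0.00961, exact permutation p = 0.0571). None of these passed after adjustment.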
